A study of Mus musculus with 4 samples.

Results

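Cell cycle and DNA replication genes were examined in pancreatic islets of Tafazzin-knockdown mice and of non-transgenic control mice. The set held 39 genes, named by symbol, and all 39 were among the 24940 genes of the deposited table. Islets of Langerhans are small clusters of hormone-secreting cells in the pancreas, and Tafazzin is the mitochondrial enzyme that remodels cardiolipin. Knockdown replicates 3 and 4 and control replicates 1 and 2 were each a pool of about 300 islets from 2 to 3 male mice, aged 3 to 4 months and fed a low-fat chow. The knockdown carries a transgene that the controls lack, so the depletion of Tafazzin and the presence of the transgene cannot be told apart, and the promoter of the transgene is not given in the sources used here.

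A cell divides by passing through G1, S phase, G2 and mitosis, driven by cyclins bound to cyclin-dependent kinases (CDKs) and restrained by CDK inhibitors. In G1 the loading factors Cdc6 and Cdt1 place the Mcm2 to Mcm7 helicase on replication origins, a step called licensing, and E2F transcription factors, held back by the retinoblastoma family, switch on many S phase genes. Adult mouse beta cells divide rarely, and D-type cyclins, above all cyclin D2, are known to be needed for their growth after birth.

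Levels are given in units, where 1 unit is 1 read in 10000000 of that library, and 1 read was worth 0.123 to 0.145 units. Library totals were 76680282 and 78630832 reads in knockdown replicates 3 and 4, and 68823160 and 81073502 reads in control replicates 1 and 2. Most reads fell on ribosomal and a few other abundant rows, which left 4849596 and 4962798 reads in the knockdown and 4595617 and 4320910 in the control libraries outside 13 rows above 25000 units. The insulin genes Ins1 and Ins2 were not counted among these 13 rows, so their reads remain in these figures. Taz, the Tafazzin gene, stood at 13.8 and 12.7 units in the knockdown and 23.1 and 15.4 units in the control, a difference that was not called (limma adjusted p = 0.529). The beta cell markers summed to 83936 and 91124 units in the knockdown and 99813 and 78839 units in the control, and none of the 14 markers was at 0.

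The deposited values of the knockdown libraries were higher across the table, with a median log2 fold change of 0.17 over 13531 tested genes. Log2 fold changes below are on the log2(units + 1) scale, knockdown minus control, relative to this median. SE is the standard error of limma, based on the spread fitted over all tested genes by level and not on the gene's own libraries. The limma p-values refer to the change before this subtraction. Of the 39 genes 27 reached a mean of 1 unit and were tested, and 12 did not. The threshold lay between Mki67 with a mean of 0.984 units, just outside, and Cdkn1c with 1.12 units, just inside.

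In the knockdown islets 2 of the 27 tested genes rose and 0 fell by limma at an adjusted p of 0.05. They were Mcm3, a subunit of the replicative helicase, and Cdk6, a kinase partner of the D-type cyclins. Of all tested genes 2.49% were called higher and 0.0443% lower, so that 7.41% of the tested members stands beside 2.49%. Among the licensing genes, both knockdown libraries lay above both controls in all 6 helicase subunits, Mcm2 to Mcm7, as they did in 34.9% of all tested genes. The D-type cyclins and the tested CDK inhibitors and mitotic genes showed no call in either direction. Of 11 mitotic genes 8 were not tested, nor was 1 of 5 CDK inhibitors. In bulk RNA, more cells of a type and more RNA per cell cannot be told apart.

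**Figure D1:**
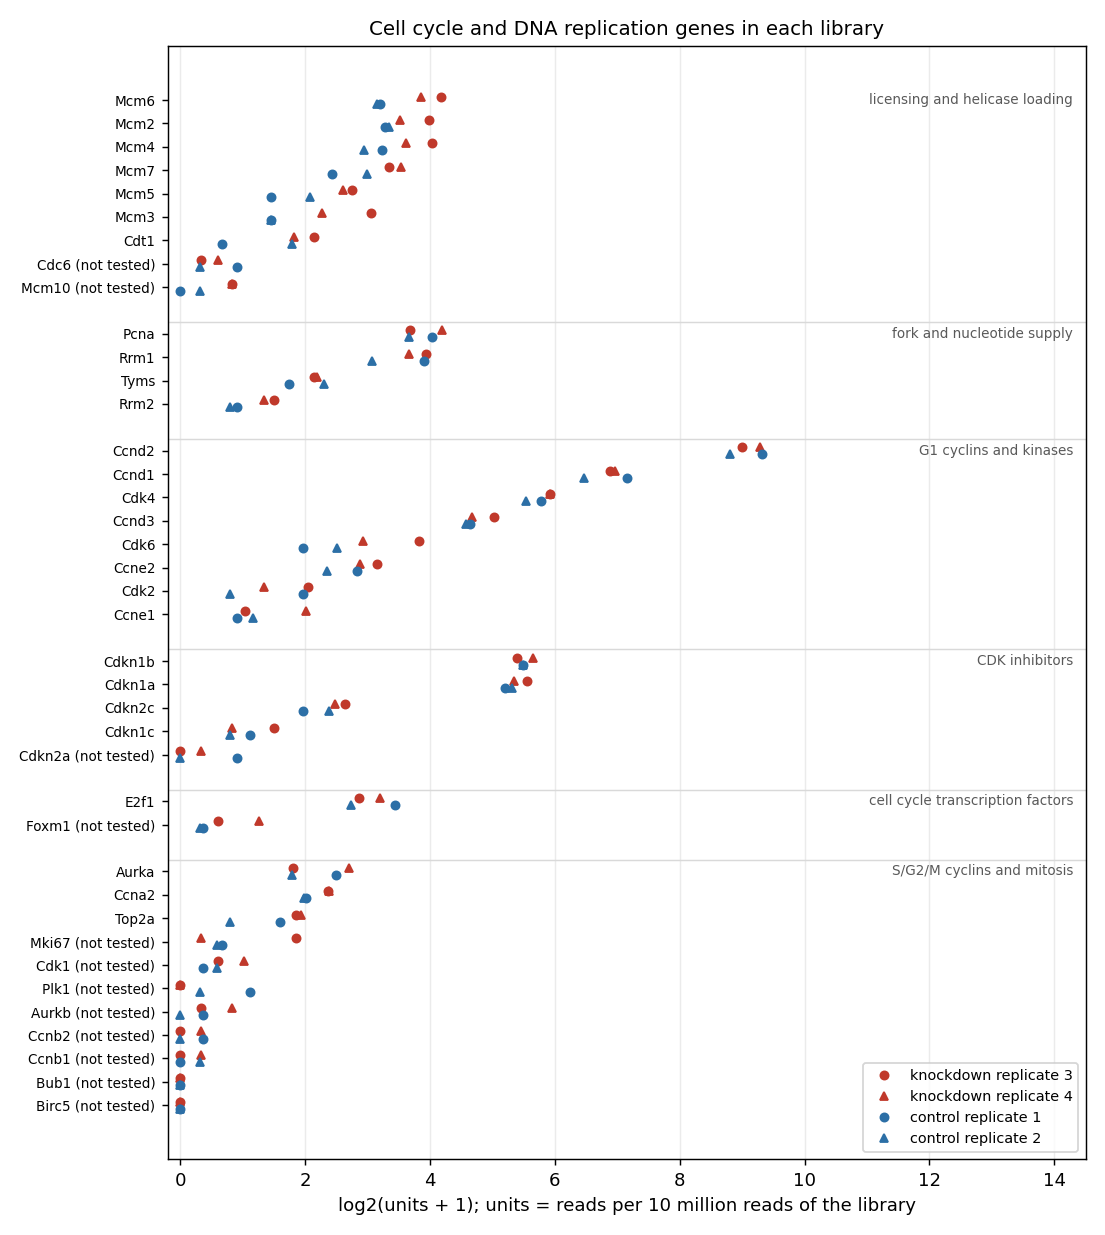
Levels of the 39 genes in each library, as log2(units + 1) on the horizontal axis, grouped by role and ordered by mean within a role, with knockdown libraries in red and control libraries in blue. The 6 genes Mcm2 to Mcm7 have both red symbols to the right of both blue ones, whereas most mitotic genes sit near 0 in every library.

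The upstream sequences of the 2 called genes, Mcm3 and Cdk6, are shown with those of 3 helicase genes that were not called, Mcm5, Mcm6 and Mcm7, chosen because their windows hold E2F-type matches. E2F factors are known regulators of helicase genes. Each is the 250 bases before the RefSeq transcription start on GRCm38.p6, the assembly also called mm10, read 5′ to 3′ on the strand of the gene. Capitals mark E2F-type matches on either strand, which are the letters TTGGCGC, the letters TTCCCGC, the letters TTCGCGC or the letters TTGCCGC. Mcm3 is at chr1:20820313-20820562 (minus), Mcm5 at chr8:75109259-75109508 (plus), Mcm6 at chr1:128359706-128359955 (minus), Mcm7 at chr5:138171884-138172133 (minus) and Cdk6 at chr5:3343643-3343892 (plus).
Mcm3: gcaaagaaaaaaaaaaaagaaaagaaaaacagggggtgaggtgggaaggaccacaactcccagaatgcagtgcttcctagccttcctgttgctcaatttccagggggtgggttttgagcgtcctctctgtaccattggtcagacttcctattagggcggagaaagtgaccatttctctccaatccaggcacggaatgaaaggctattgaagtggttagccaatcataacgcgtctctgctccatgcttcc
Mcm5: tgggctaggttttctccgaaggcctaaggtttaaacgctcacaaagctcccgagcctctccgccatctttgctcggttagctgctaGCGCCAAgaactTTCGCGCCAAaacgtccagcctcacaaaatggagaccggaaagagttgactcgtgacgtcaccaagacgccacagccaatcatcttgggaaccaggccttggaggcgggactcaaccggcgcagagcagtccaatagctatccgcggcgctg
Mcm6: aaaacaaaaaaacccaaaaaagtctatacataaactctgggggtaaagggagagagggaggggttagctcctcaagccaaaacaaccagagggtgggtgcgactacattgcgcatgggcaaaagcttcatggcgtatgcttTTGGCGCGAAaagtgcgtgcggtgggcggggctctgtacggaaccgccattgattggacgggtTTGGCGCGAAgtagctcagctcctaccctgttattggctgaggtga
Mcm7: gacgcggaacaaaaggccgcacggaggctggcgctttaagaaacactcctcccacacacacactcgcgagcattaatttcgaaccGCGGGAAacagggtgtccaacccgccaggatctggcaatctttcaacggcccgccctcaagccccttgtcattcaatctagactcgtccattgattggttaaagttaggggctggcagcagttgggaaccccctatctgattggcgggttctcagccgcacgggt
Cdk6: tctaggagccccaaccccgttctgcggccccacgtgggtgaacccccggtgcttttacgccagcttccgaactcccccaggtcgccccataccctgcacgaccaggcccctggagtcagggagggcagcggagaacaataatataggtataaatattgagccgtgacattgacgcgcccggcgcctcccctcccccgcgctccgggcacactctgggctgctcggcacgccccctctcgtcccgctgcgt

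Mcm6 held 2 separate stretches of capitals, each made of overlapping matches on opposite strands, and Mcm5 held 3 matches of which 2 overlap. Mcm7 held 1 match, the windows of Mcm3 and Cdk6 held none, and the window of Mcm2, which is not shown, held none either. Of the helicase genes, Mcm4 had no window in the table, so 3 of 5 windows held a match. Of the 39 genes 31 had a RefSeq window, and 12 of these 31 windows, or 38.7%, held at least 1 E2F-type match. The share over all 32851 windows of that length was 7.89%. The CCAAT box, searched as CCAAT on both strands, was in 19 of the 31 windows and in 33.8% of all windows. The element called CHR, searched as TTTGAA on both strands, was in 5 of the 31 and in 16.0% of all windows. A match of letters is a description of the sequence and not evidence of a bound site.

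The helicase genes were the group with the highest median among the roles. The 7 tested genes of licensing and helicase loading had a median of 0.59 on the log2 scale with no value below 0, and both knockdown libraries lay above both controls in all 7. After median-ratio scaling, which sets the median of all genes near 0, such non-overlap was found in 20.4% of all tested genes. Of Mcm2 to Mcm7, 5 of 6 remained non-overlapping after that scaling, Mcm2 being the exception. Cdt1, the other tested licensing gene, overlapped as well, with scaled levels of 3.14 and 2.40 in the knockdown and 0.558 and 2.90 in the control.

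Mcm3 (NM_008563; mm10 chromosome 1, 20802968 to 20820312, minus strand) had 7.30 and 3.82 units in knockdown libraries 3 and 4, against 1.74 and 1.73 units in control libraries 1 and 2. Knockdown replicate 3 was the highest library, and the controls were nearly equal. These values rest on 56 and 30 reads in the knockdown and on 12 and 14 reads in the control. Mcm3 rose by a log2 fold change of 1.04 ± 0.36 SE (limma adjusted p = 0.0315), and the ratio of the group means was 3.20. The call was lost with median-ratio scaling, where limma gave an adjusted p of 0.197, and with edgeR on the recovered reads, which gave 0.178. Without knockdown replicate 3 its log2 fold change was 0.66 (limma adjusted p = 1.0), and without control replicate 2 its adjusted p was 0.109.

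Mcm6 (mm10 chromosome 1, 128331575 to 128359705, minus strand), whose window holds the overlapping E2F-type matches above, stood at 17.0 and 13.5 units in the knockdown, against 8.14 and 7.89 units in the control. The groups were separated by more than the range within either, with a log2 fold change of 0.67 ± 0.26 SE, but the gene was not called (limma adjusted p = 0.0534). Mcm5 stood at 5.74 and 5.09 units in the knockdown, against 1.74 and 3.21 units in the control (0.75 ± 0.34 SE, limma adjusted p = 0.154). For Mcm5 the control libraries differed more from each other than the knockdown libraries did.

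Mcm4 stood at 15.4 and 11.2 units in the knockdown and at 8.43 and 6.66 units in the control, with a log2 fold change of 0.57 ± 0.27 SE and a limma adjusted p of 0.139. Mcm7, whose row also spans the microRNA genes Mir25, Mir106b and Mir93 at under 0.5% of its level each, stood at 9.13 and 10.6 units in the knockdown and at 4.36 and 6.91 units in the control (limma adjusted p = 0.181). Mcm2 stood at 14.9 and 10.4 units in the knockdown and at 8.72 and 9.13 units in the control (limma adjusted p = 0.625). Mcm2 had the smallest shift of the 6, with a log2 fold change of 0.28 ± 0.26 SE, and its knockdown replicate 4 lay close to the controls.

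Summed over Mcm2 to Mcm7, a sum formed after the values were seen, the level was 69.4 and 54.6 units in the knockdown, against 33.1 and 35.5 units in the control. These sums rest on 532 and 429 reads in the knockdown and on 228 and 288 reads in the control. After median-ratio scaling the sums were 64.25 and 51.41 units in the knockdown and 31.79 and 41.75 units in the control. The scaled controls thus lay further apart than the deposited ones. The median log2 fold change of the 6 genes was 0.62, and it lay between 0.43 and 0.89 when each library was left out in turn. The limma test gave 5 of the 6 an unadjusted p under 0.05, beside 9.88% of all tested genes higher at that level and 10.3% in either direction. After median-ratio scaling limma gave 4 of the 6, beside 10.3% of all tested genes in either direction. By edgeR there were 3 of the 6, beside 10.3% of all tested genes, with edgeR adjusted p-values between 0.178 and 0.774.

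**Figure D2:**
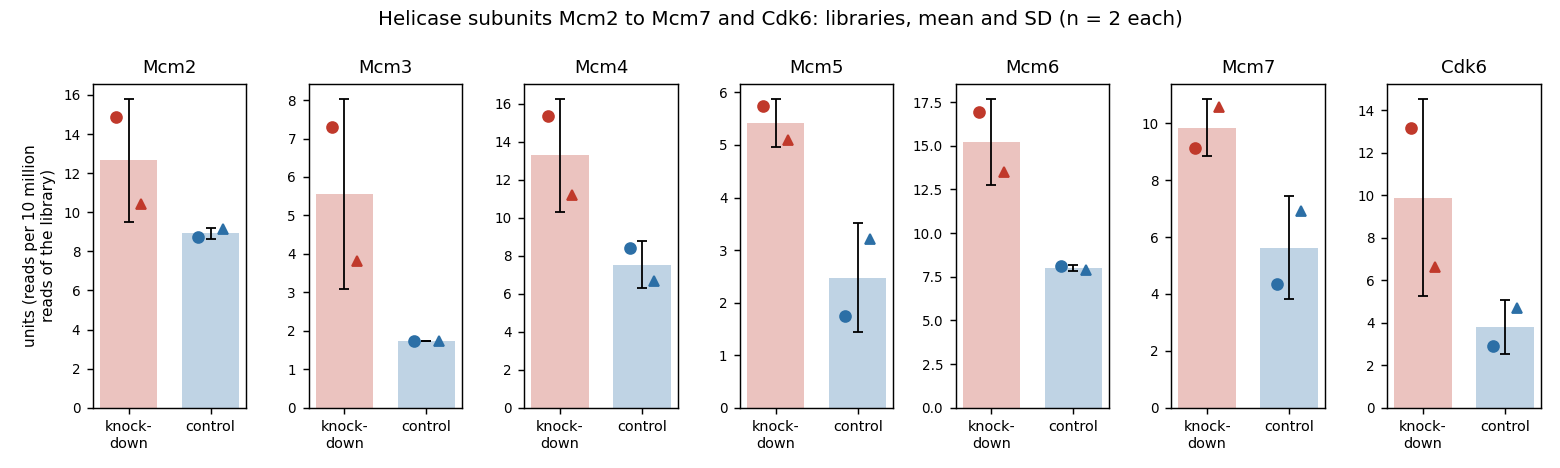
Level in units (reads per 10000000 reads of the library) of the 6 helicase genes and Cdk6, with knockdown on the left and control on the right of each panel. Bars are means, error bars the SD over n = 2 libraries, circles replicates 3 and 1 and triangles replicates 4 and 2. In each panel both knockdown libraries lie above both controls, as for Mcm3 at 7.30 and 3.82 against 1.74 and 1.73 units.

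Among the loading factors, Cdt1, which brings the helicase to origins, stood at 3.39 and 2.54 units in the knockdown and at 0.581 and 2.47 units in the control (limma adjusted p = 0.542). Control replicate 2 was close to the knockdown libraries, and without control replicate 1 the log2 fold change of Cdt1 was -0.115 in place of 0.59. Cdc6, the partner of Cdt1, had 2 and 4 reads in the knockdown and 6 and 2 reads in the control, and was not tested. Mcm10, which acts when the helicase is activated, had 6 and 6 reads in the knockdown and 0 and 2 reads in the control, and was not tested either. At these counts a difference was not measurable, and 3 reads, taken as the limit that a count of 0 allows, are worth 0.370 to 0.436 units. That limit takes reads as independent. Most small counts were even numbers, so the limit may be too low.

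The genes of the replication fork and of nucleotide supply had a median of 0.06 over 4 tested genes, and the difference from the helicase genes was not tested. Of these 4, limma called 0 and edgeR 0, and an unadjusted p under 0.05 was reached by 0 in each. Limma called 2.49% of all tested genes higher, and 10.3% reached an unadjusted p under 0.05 by either tool. Pcna, the sliding clamp of the DNA polymerases, stood at 11.7 and 17.3 units in the knockdown and at 15.3 and 11.6 units in the control. Rrm1, the large subunit of ribonucleotide reductase, stood at 14.2 and 11.7 units in the knockdown and at 13.9 and 7.40 units in the control. Both genes overlapped between the groups. Rrm2, the small subunit that limits the enzyme in S phase, had 14 and 12 reads in the knockdown and 6 and 6 reads in the control (0.40 ± 0.48 SE, limma adjusted p = 0.812). Tyms, thymidylate synthase, stood at 3.39 and 3.56 units in the knockdown and at 2.33 and 3.95 units in the control.

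Of the 8 G1 cyclins and kinases 1 rose, Cdk6, beside 2.49% of all tested genes called higher, and the median log2 fold change was 0.12. Cdk6 (NM_009873; mm10 chromosome 5, 3343893 to 3531005, plus strand) stood at 13.2 and 6.61 units in the knockdown, against 2.91 and 4.69 units in the control. Knockdown replicate 3 was far above the other libraries, and knockdown replicate 4 was nearer to the controls. These values rest on 101 and 52 reads in the knockdown and on 20 and 38 reads in the control. Cdk6 rose by a log2 fold change of 0.97 ± 0.29 SE (limma adjusted p = 0.00740), and the ratio of the group means was 2.61. Its call too was lost with median-ratio scaling, at a limma adjusted p of 0.194, and with edgeR, at 0.168. Leaving out knockdown replicate 3 gave a log2 fold change of 0.53 (limma adjusted p = 1.0), and leaving out control replicate 1 gave 0.57 (limma adjusted p = 0.0687).

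Cdk4, the related kinase on which beta cell number is known to depend, stood at 59.6 and 59.5 units in the knockdown and at 53.6 and 45.6 units in the control, with a log2 fold change of 0.10 ± 0.24 SE (limma adjusted p = 0.838). The difference between the Cdk6 and Cdk4 changes was not tested. Ccnd2, the cyclin D2 gene, stood at 513 and 626 units in the knockdown and at 640 and 445 units in the control (-0.08 ± 0.22 SE, limma adjusted p = 0.965). Ccnd1, cyclin D1, stood at 116 and 123 units in the knockdown and at 142 and 87.2 units in the control (-0.06 ± 0.24 SE, limma adjusted p = 0.956). For both cyclins the knockdown libraries lay between the controls. Ccnd1 overlaps Oraov1 and Ccnd2 overlaps 9330179D12Rik on the opposite strand, at 32.8% and 7.63% of their levels. Ccnd3, cyclin D3, stood at 31.7 and 24.4 units in the knockdown and at 24.0 and 22.9 units in the control. It overlaps Bysl on the opposite strand, at 63.1% of its level.

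The E-type cyclins, which activate Cdk2 at the start of S phase, were low. Ccne1 stood at 1.04 and 3.05 units in the knockdown and at 0.872 and 1.23 units in the control, so that only knockdown replicate 4 stood out. Ccne2 stood at 7.83 and 6.36 units in the knockdown and at 6.10 and 4.07 units in the control. Ccne2 overlaps Ints8 on the opposite strand, at 427% of its level. Whether their reads were kept apart in the overlap is not given in the sources used here. Cdk2 stood at 3.13 and 1.53 units in the knockdown and at 2.91 and 0.740 units in the control, with overlapping groups.

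The CDK inhibitors had a median of 0.03 over 4 tested genes, of which limma called 0 and edgeR 0, with an unadjusted p under 0.05 for 0 in each. These counts stand beside 2.49% of all tested genes called higher by limma and 10.3% at an unadjusted p under 0.05 by either tool. Cdkn1a, which encodes p21 and is a target of p53, stood at 46.2 and 39.4 units in the knockdown and at 35.7 and 38.7 units in the control (0.03 ± 0.25 SE, limma adjusted p = 0.893). Cdkn1b, which encodes p27, stood at 41.2 and 49.3 units in the knockdown and at 43.7 and 43.7 units in the control (-0.12 ± 0.24 SE, limma adjusted p = 0.984). Cdkn2c, the p18 inhibitor of Cdk4 and Cdk6, stood at 5.22 and 4.58 units in the knockdown and at 2.91 and 4.19 units in the control. Cdkn1c, which encodes p57, had 14 and 6 reads in the knockdown and 8 and 6 reads in the control. Cdkn2a, the locus of p16 and Arf and a marker of ageing beta cells, had 0 and 2 reads in the knockdown and 6 and 0 reads in the control, and was not tested.

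Of the transcription factors, E2f1 stood at 6.26 and 8.14 units in the knockdown and at 9.88 and 5.67 units in the control (-0.23 ± 0.28 SE, limma adjusted p = 0.978). Foxm1, a driver of mitotic genes, had 4 and 11 reads in the knockdown and 2 and 2 reads in the control and was not tested.

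Genes of S phase exit and mitosis held few reads in both groups. Of 11 such genes 8 were not tested, and Bub1 and Birc5, a checkpoint kinase and survivin, had 0 reads in every library. All 11 together held 97 and 118 reads in the knockdown and 85 and 62 reads in the control. Ccna2, cyclin A2, stood at 4.17 and 4.20 units in the knockdown and at 3.05 and 2.96 units in the control (0.21 ± 0.34 SE, limma adjusted p = 0.837). It overlaps Exosc9 on the opposite strand, at 340% of its level. Top2a, the topoisomerase of dividing cells, stood at 2.61 and 2.80 units in the knockdown and at 2.03 and 0.740 units in the control (0.52 ± 0.42 SE, limma adjusted p = 0.631). Aurka, a spindle kinase, stood at 2.48 and 5.47 units in the knockdown and at 4.65 and 2.47 units in the control. Of these 3 tested genes limma called 0 and edgeR 0, and an unadjusted p under 0.05 was reached by 0 in each. The shares over all tested genes were 2.49% called higher by limma and 10.3% at that unadjusted level by either tool.

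Mki67, the antigen Ki-67 that marks cycling cells, had 20 and 2 reads in the knockdown and 4 and 4 reads in the control, so that knockdown replicate 3 alone was high. Cdk1, the mitotic kinase, had 4 and 8 reads in the knockdown and 2 and 4 reads in the control. Plk1, a kinase of mitotic entry, had 0 and 0 reads in the knockdown and 8 and 2 reads in the control, in the other direction. Aurkb, the kinase of the chromosomal passenger complex, had 2 and 6 reads in the knockdown and 2 and 0 reads in the control. The B-type cyclin genes Ccnb1 and Ccnb2 had at most 2 reads in any library.

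**Figure D3:**
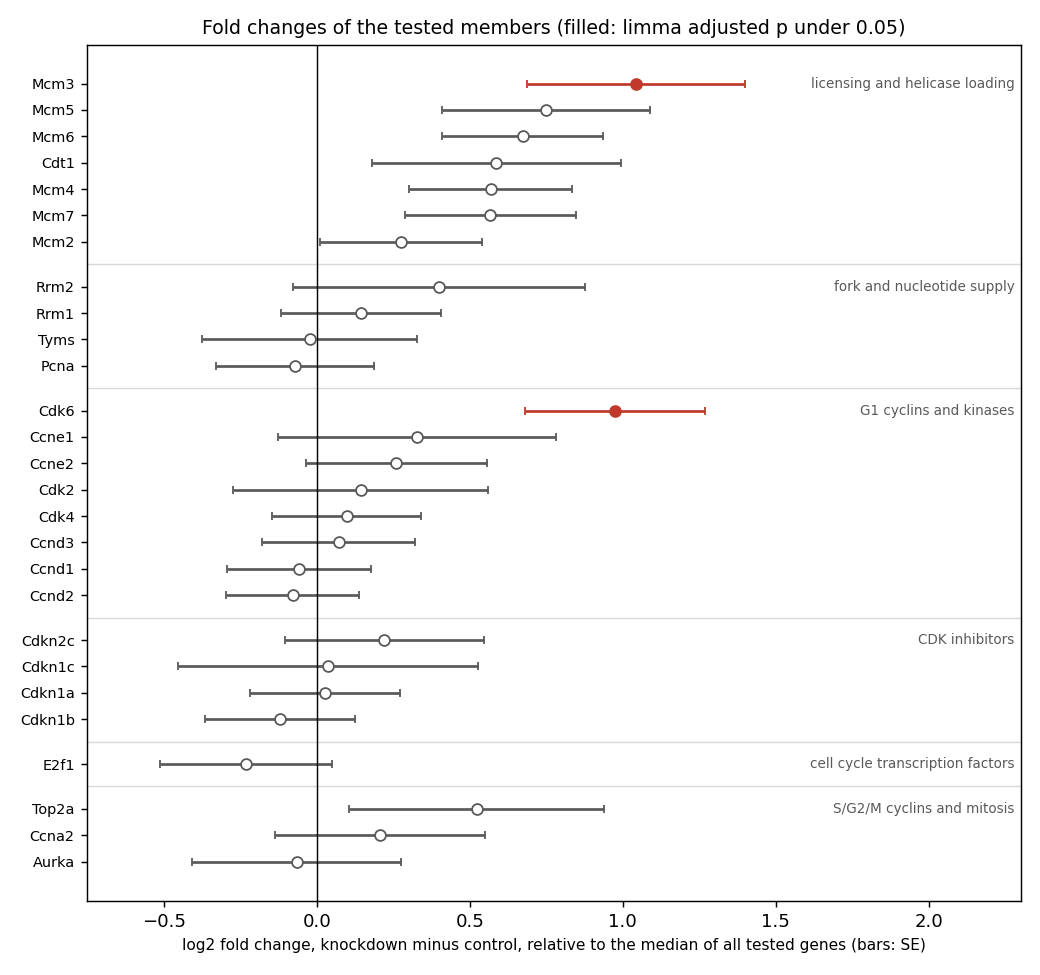
Log2 fold change, knockdown minus control, relative to the median of all tested genes, for the 27 tested genes by role, with bars of 1 SE. The filled points are Mcm3 at 1.04 and Cdk6 at 0.97, and the points of the D-type cyclins and CDK inhibitors lie near 0.

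Over all 27 tested genes the median log2 fold change was 0.21, beside 0 for all genes by definition, and 20 had values above 0. Both knockdown libraries lay above both controls in 16 of the 27, or 59.3%, beside 34.9% of all tested genes. After median-ratio scaling this held for 11, or 40.7%, beside 20.4% of all tested genes. In 0 of the 27 did both knockdown libraries lie below both controls, beside 4.49% of all tested genes on the deposited values, and after scaling this was again 0, beside 20% of all tested genes. Rrm2 and Cdkn1c had a control mean under 1 unit and entered only through their knockdown values, so these counts describe the tested genes and not all 39. With median-ratio scaling limma called 0 of the 27, beside 1.12% of all tested genes called higher and 0.155% lower. On the recovered reads edgeR called 0, beside 1.29% higher and 0.148% lower, and DESeq2 called 0, beside 0.606% higher and 0.0739% lower. At an unadjusted p under 0.05 there were 6 of the 27 in the limma test, 5 after scaling and 4 by edgeR, beside 10.3% of all tested genes in each. Without the mean-variance trend Mcm5 was called as well, a total of 3 beside 3.9% of all tested genes higher and 0.118% lower. Without control replicate 1 the calls were Mcm3, Mcm4, Mcm6, Ccnd1 and Ccnd2, beside 9.36% higher and 0.273% lower. Without knockdown replicate 3 there were 0, beside 0.207% higher and 0.0296% lower. With scaling and without knockdown replicate 4 they were Mcm3 and Cdk6, beside 2.52% higher and 0.503% lower.

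Other genes of the same pathway were taken from lists. Of 50 other replication genes 44 were tested, 1 rose and 0 fell, beside 2.49% of all tested genes called higher. An unadjusted p under 0.05 was reached by 7 of the 44 in limma, all higher, and by 3 in edgeR. Over all tested genes this share was 10.3% by either tool. Both knockdown libraries lay above both controls in 17 of the 44, or 38.6%, beside 34.9% of all tested genes. The median of the 44 was 0.01, beside 0.59 for the licensing genes, and this difference was not tested. The gene that rose was Pola2, a subunit of the polymerase that makes primers, at 6.39 and 6.61 units in the knockdown and 2.03 and 3.21 units in the control (0.90 ± 0.33 SE, limma adjusted p = 0.0436). Its adjusted p was 0.248 in limma with scaling, 0.292 in edgeR and 0.601 in limma without knockdown replicate 3, so the call was lost in each, as it was without control replicate 1 (0.132) and without knockdown replicate 4 (0.239). Dnmt1, the maintenance DNA methyltransferase, stood at 40.7 and 33.3 units in the knockdown and at 21.8 and 22.3 units in the control (limma adjusted p = 0.110). Uhrf1, which guides Dnmt1 to replicated DNA, stood at 2.35 and 3.05 units in the knockdown and at 0.581 and 0.493 units in the control (limma adjusted p = 0.140). Uhrf1 had a control mean under 1 unit and was tested only through its knockdown values. The groups did not overlap for Dnmt1, as for 34.9% of all tested genes higher in the knockdown.

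Of 46 other mitosis genes 19 were tested and 0 were called by limma or edgeR, with a median of -0.05. At an unadjusted p under 0.05 there were 2 and 3 of the 19, beside 10.3% of all tested genes by either tool. Mad2l1, a spindle checkpoint gene, stood at 3.13 and 3.56 units in the knockdown and at 1.16 and 1.23 units in the control (limma adjusted p = 0.257). Kif23, a kinesin of cell separation, stood at 2.35 and 1.02 units in the knockdown and at 0.291 and 0.493 units in the control (limma adjusted p = 0.577), and it too was tested only through its knockdown values. Ncapd2, a condensin subunit, stood at 56.3 and 18.6 units in the knockdown and at 61.0 and 52.5 units in the control, so that knockdown replicate 4 alone was low (limma adjusted p = 0.0530). Ncapd2 was called lower without control replicate 1 (limma adjusted p = 0.0105) and without control replicate 2 (0.000297), and without knockdown replicate 4 its adjusted p was 1.0. The row of Ncapd2 also spans Scarna10, which holds 9.88% of its level.

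The retinoblastoma, E2F and DREAM genes, which repress or activate cell cycle promoters, had a median of -0.11 over 17 tested genes. Of these 17, 0 were called by limma or edgeR, beside 2.49% of all tested genes called higher by limma. At an unadjusted p under 0.05 there was 1 by each tool, beside 10.3% of all tested genes by either. Rbl1, the pocket protein p107, stood at 10.7 and 10.9 units in the knockdown and at 6.10 and 7.15 units in the control (limma adjusted p = 0.302). Lin52, a subunit of the DREAM complex, stood at 8.35 and 7.38 units in the knockdown and at 6.25 and 4.81 units in the control, and Tfdp1, the partner of E2F proteins, at 28.7 and 26.5 units in the knockdown and 24.4 and 18.3 units in the control. Among 18 tested other CDK regulators the median was -0.07 and 0 were called by limma or edgeR. At an unadjusted p under 0.05 there were 0 and 1, beside the same 10.3% of all tested genes. Their largest statistics were those of Ccng2, Ccnl1 and Cdk5, with limma adjusted p of 0.670, 0.698 and 0.742.

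The 21 tested p53 targets, the genes that accompany Cdkn1a in a DNA damage response, had a median of 0.02, with 0 called by limma or edgeR. At an unadjusted p under 0.05 there were 2 and 3 of the 21, beside 10.3% of all tested genes by either tool. Phlda3, an inhibitor of Akt, stood at 8.09 and 6.87 units in the knockdown and at 2.91 and 5.43 units in the control (limma adjusted p = 0.223). Plk2 stood at 21.8 and 18.4 units in the knockdown and at 13.4 and 12.3 units in the control, and Perp at 13.0 and 8.52 units in the knockdown and 6.68 and 8.39 units in the control (limma adjusted p = 0.278 and 0.634).

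Of 25 tested regulators of beta cell replication 4 rose and 0 fell, beside 2.49% of all tested genes called higher and 0.0443% lower. Their median was 0.08. Id2, an inhibitor of basic helix-loop-helix factors, rose to 23.5 and 19.7 units in the knockdown, against 10.2 and 9.62 units in the control (0.88 ± 0.26 SE, limma adjusted p = 0.00324). Its call held with scaling, at 0.0260 in limma, and in edgeR, at an adjusted p of 0.0232, and was lost with no filter on low values (limma adjusted p = 0.125) and in DESeq2, which called 0 of the 25. Its relative Id3 rose to 24.0 and 15.0 units in the knockdown, against 11.3 and 9.13 units in the control (limma adjusted p = 0.0449). Myc, a growth-promoting transcription factor, rose to 20.3 and 12.7 units in the knockdown, against 8.43 and 8.14 units in the control (limma adjusted p = 0.0347). Yap1, the Hippo pathway coactivator, rose to 15.6 and 6.87 units in the knockdown, against 2.62 and 5.18 units in the control (limma adjusted p = 0.00108). Id3, Myc and Yap1 were not called after scaling or by edgeR (edgeR adjusted p = 0.156, 0.168 and 0.118), and without knockdown replicate 3 none of the 4 was called, with limma adjusted p of 0.775 for Id2 and 1.0 for the others. The call was also lost without control replicate 1 for Yap1 (limma adjusted p = 0.0513), without control replicate 2 for Myc (0.0570) and Id3 (0.132), and without knockdown replicate 4 for Id2 (0.0569) and Id3 (0.0595).

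**Figure D4:**
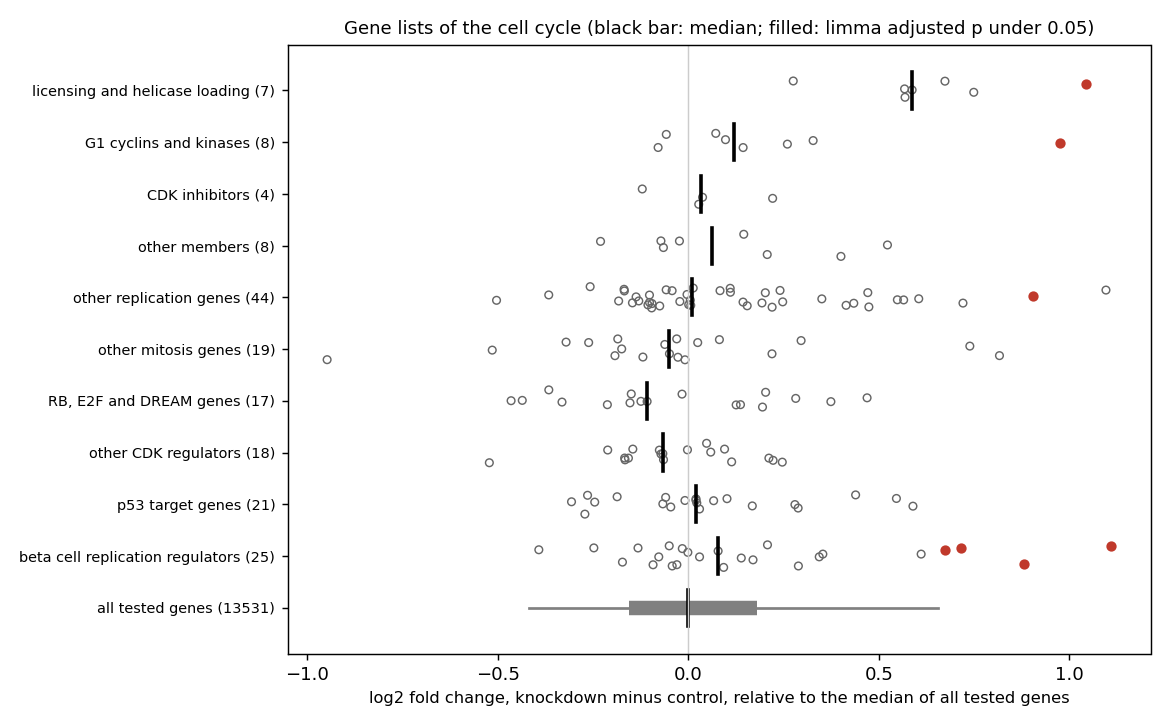
Log2 fold change relative to the median of all tested genes (horizontal axis) for each tested gene of the lists, with the number tested in brackets, black bars at list medians and filled points for genes called by limma; for all genes the thick grey bar spans the 25th to 75th percentile and the line the 5th to 95th. All 7 licensing genes lie right of 0 with a median of 0.59, beside a thick bar from -0.16 to 0.18 for all genes, and the other replication genes are spread around 0.01.

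Markers of other cell types differed between the same libraries. The counts below stand beside 2.49% of all tested genes called higher by limma and 0.0443% lower. All 16 markers of stellate cells, fibroblasts and pericytes were tested, 11 rose by limma, and their sum was 488 and 368 units in the knockdown, against 161 and 158 units in the control. Of 13 tested endothelial markers 6 rose, with sums of 402 and 311 units in the knockdown and 209 and 174 units in the control. Duct markers summed to 1966 and 1296 units in the knockdown and 984 and 1086 units in the control, and 4 of 11 tested rose. Myeloid markers summed to 82.4 and 67.9 units in the knockdown and 66.4 and 58.5 units in the control, and 2 of 10 tested rose. No marker of these 4 lists was at 0 in every library. Acinar markers summed to 5554 and 2585 units in the knockdown and 3136 and 6561 units in the control, with Amy2a5 at 0 in every library, and 0 of 11 tested were called. Lymphocyte markers summed to 3.13 and 1.15 units in the knockdown and 1.16 and 1.48 units in the control, with Cd3d, Cd4, Ms4a1 and Nkg7 at 0 in every library. Alpha cell markers summed to 6956 and 6819 units in the knockdown and 5775 and 6500.2 units in the control, and delta and PP cell markers to 2330 and 1984 units in the knockdown and 2081 and 1803 units in the control. Median log2 fold changes were 1.18 for stellate, 0.65 for endothelial, 0.41 for duct and -0.02 for myeloid markers. They were -0.41 for acinar, -0.34 for beta cell, -0.15 for alpha cell and -0.06 for delta and PP cell markers. Mcm3 and Cdk6 were highest in knockdown replicate 3. So were the stellate, endothelial, duct, myeloid, lymphocyte, red blood cell, alpha cell and delta and PP cell sums. The acinar and beta cell sums were not. Mki67 was highest there too, whereas Top2a, Cdk1, Aurka, Aurkb and Mcm7 were highest in knockdown replicate 4. The part of these cell types in the values of Mcm3, Cdk6 and the other helicase genes was not tested.

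**Figure D5:**
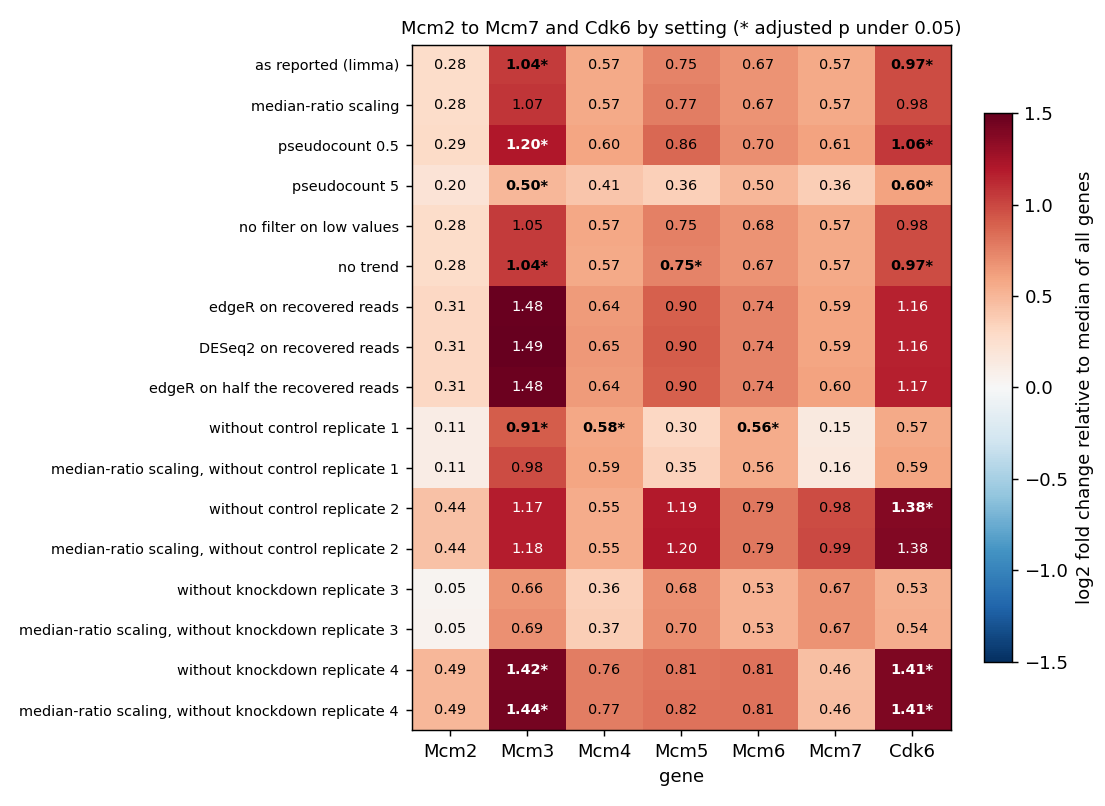
Log2 fold change of Mcm2 to Mcm7 and Cdk6 relative to the median of all genes (colour and printed value) in each setting of the analysis (rows), with an asterisk where the adjusted p was under 0.05. All values are above 0, the calls of Mcm3 and Cdk6 are absent in 10 of the 16 alternatives each, and the values without knockdown replicate 3 are among the lowest for Mcm2, Mcm3, Mcm4, Mcm6 and Cdk6.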

How the data were processed

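RNA was depleted of ribosomal RNA and sequenced from directional, randomly primed libraries, per the labels' protocols. The submitters' processing notes name STAR 2.5.1b, HOMER 4.9, edgeR and mm10, without roles. The authors deposited a signal, reads scaled to 10000000 per library, which the values show to carry no division by gene length. Dividing by the value of 1 read gave whole reads within 0.01 for 100% of genes, and these recovered reads were used for count tests. Of counts from 1 to 10, 82.4% to 83.8% were even numbers, so reads may not be independent, and intervals or limits from them cover counting error only. The listed length equals the genomic span for 99.2% of rows. Whether introns or only 1 strand were counted is not given in the sources used here, so genes that overlap are uncertain. Gapdh, at 2.22 to 5.35 units, and Ppia, at 1.30 to 1.78, were low for such abundant genes. Both have many near-identical copies, and 5 members (Ccnb1, Ccnb2, Ccnd3, Pcna and Tyms) have pseudogenes named after them in GENCODE, so their levels are uncertain.

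The filter kept genes averaging 1 unit or more and spanning 200 nt or more. Log2(value + 1) was tested two-sided in limma 3.58.1 under R 4.3.3, using its intensity trend, and p-values were adjusted by Benjamini-Hochberg over every tested gene (threshold 0.05). The prior degrees of freedom were infinite (21.4 after median-ratio scaling), so each gene's spread came from the trend. Alternatives were median-ratio scaling, other pseudocounts, no filter, no trend, edgeR 4.0.16 and DESeq2 1.42.0 on recovered reads, and leaving out each library. Tools were tested on simulated data. Members and lists were chosen with earlier results of these data known. Genes were named by a rule: every member, and of each other list the called genes, or the 3 with the largest statistics where fewer than 3 were called. The groups share no replicate number, and 2 against 2 libraries allow no exact permutation p below 0.333. The labels name each library as a pool of mice, so the spread is between pools and not between single mice. In the main limma fit that spread was fitted over all tested genes, so its p-values do not measure a gene's own spread.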

Additional observations from a re-analysis of the deposited data

How the results depend on the processing

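The 2 calls among the members became 0 with median-ratio scaling, no filter on low values, edgeR, DESeq2 and edgeR on counts divided by 2 (chosen after seeing the data). They numbered 0 to 5 when each library was left out, and 0 to 2 when median-ratio scaling was added to this, with 0 lower calls throughout. Members with non-overlapping groups numbered 16 with all libraries, all of them higher, and 15 to 25 when a library was left out, with or without scaling. The counts with a library left out include both directions. With 1 library left in a group, non-overlap is easier to reach, and no share of all tested genes is given for these settings. The range of 15 to 25 therefore cannot show whether the 16 are stable. Calls over all genes (337 higher, 6 lower) became 151 and 21 after scaling, 80 and 0 with no filter, 528 and 16 without the trend, 174 and 20 by edgeR, 82 and 10 by DESeq2, and 160 and 18 by edgeR on counts divided by 2. Leaving out a library gave 28 to 1266 higher and 3 to 59 lower calls, and with scaling 0 to 341 higher (75 without control replicate 2, 45 without knockdown replicate 3) and 0 to 68 lower (49 without knockdown replicate 3). Without control replicate 1 Ccnd1 and Ccnd2 turned from below to above the median of all genes, with log2 fold changes of 0.15 and 0.05. With median-ratio scaling added they were 0.13 and 0.02. Over the libraries left out without scaling, Ccnd1 ranged from -0.27 to 0.15 and Ccnd2 from -0.24 to 0.072. The median of the members was 0.08 with a pseudocount of 5 and otherwise between 0.11 and 0.30. Of 432 pairs of member and alternative, 48 had the other sign from the reported value, in 15 members. The causes were not tested. No paired analysis was possible because the groups share no replicate number. Depth limits the 12 untested members, which held few reads.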
